A study of Mus musculus with 21 samples.

Results

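The mitochondrial ATP synthase has a water-soluble head, F1, that makes ATP, and a membrane part, Fo, that lets protons through the inner membrane. Described here are 10 nuclear genes for Fo and the stalk that ties it to F1, of 55487 genes in the deposited table. They were chosen by name: the c-ring genes Atp5g1, Atp5g2 and Atp5g3, the peripheral stalk genes Atp5pb, Atp5h, Atp5j and Atp5o, and the membrane subunit genes Atp5j2, Atp5k and Atp5l. All 10 were found in the table and all 10 passed the filter on low counts. The study asked whether maternal separation (MS) early in life leaves lasting changes in the transcripts of the hippocampus. Poly-A RNA was sequenced from the hippocampus of wild type male C57BL/6 mice, one mouse to a library, in 9 MS mice and 12 standard reared (SR) controls. Whole nests were separated from the dam for 4 hours per day between postnatal days 10 and 17, and most of the nesting material was taken out of the MS home cages over those days, so MS stands here for separation together with limited nesting material. SR nests had neither, and tissue was taken at 10 weeks. The mice of a nest share a dam and a condition, so p-values over mice measure the spread between these animals and not between nests.

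As protons pass the interface of subunit a and the c-ring, the ring turns, and the central stalk carries that turn into F1. The peripheral stalk, built of subunits b, d, F6 and the oligomycin sensitivity conferring protein (OSCP), holds the head still. Subunits e, f and g lie in the membrane beside subunit a, and e and g join synthases into dimers that shape the folds, or cristae, of the inner membrane. Neurons draw most of their ATP from this enzyme.

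The 3 c-ring genes are a case in which different transcripts give the same working protein. Each encodes its own import presequence, of 61 residues in Atp5g1, 71 in Atp5g2 and 66 in Atp5g3, which is cut off in the mitochondrion. The mature peptide of 75 residues that remains was the same for all 3 genes, with 0 residue differences in any pair. The stretches of 225 coding bases that encode it follow in the direction of the transcript, from the GRCm38 genome, because they carry what the counts can and cannot tell apart. Capitals mark the 57 positions at which the 3 genes are not all the same.
Atp5g1: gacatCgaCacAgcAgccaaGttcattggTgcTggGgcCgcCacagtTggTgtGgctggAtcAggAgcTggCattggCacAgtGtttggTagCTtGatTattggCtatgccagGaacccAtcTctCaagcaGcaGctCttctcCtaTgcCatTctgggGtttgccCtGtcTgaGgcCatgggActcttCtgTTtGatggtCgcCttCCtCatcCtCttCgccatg
Atp5g2: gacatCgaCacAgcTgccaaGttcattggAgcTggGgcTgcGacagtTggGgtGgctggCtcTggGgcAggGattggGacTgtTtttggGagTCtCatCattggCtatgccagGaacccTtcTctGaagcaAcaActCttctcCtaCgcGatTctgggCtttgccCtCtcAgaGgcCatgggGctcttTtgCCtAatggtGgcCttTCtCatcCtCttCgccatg
Atp5g3: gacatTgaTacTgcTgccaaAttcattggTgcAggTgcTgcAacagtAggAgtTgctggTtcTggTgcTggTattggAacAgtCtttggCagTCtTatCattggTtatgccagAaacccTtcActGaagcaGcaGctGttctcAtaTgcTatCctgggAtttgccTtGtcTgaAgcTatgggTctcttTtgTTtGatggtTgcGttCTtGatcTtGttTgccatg
Of these bases, 84.9% were the same in Atp5g1 and Atp5g2, 80.0% in Atp5g1 and Atp5g3, and 78.7% in Atp5g2 and Atp5g3. The longest identical run in any pair was 20 bases, between Atp5g1 and Atp5g2. Counts of these 3 genes are therefore counts of separate transcripts of 1 mature protein.

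RefSeq lists a promoter (250 bases before to 50 after the start of the gene, GRCm38.p6) for all 10 genes. Those of Atp5l, Atp5h, Atp5g3 and Atp5j2 are printed, the 4 lowest in p when MS was compared with SR, all on the minus strand and read in the direction of the gene. Capitals mark matches, on either strand, to 4 short motifs of factors known for mitochondrial genes: the ETS site CCGGAAG, the NRF1 core GCATGCG, the YY1 site AAGATGG and the SP1 site GGGCGGG.
Atp5l (chr9:44920693-44920992): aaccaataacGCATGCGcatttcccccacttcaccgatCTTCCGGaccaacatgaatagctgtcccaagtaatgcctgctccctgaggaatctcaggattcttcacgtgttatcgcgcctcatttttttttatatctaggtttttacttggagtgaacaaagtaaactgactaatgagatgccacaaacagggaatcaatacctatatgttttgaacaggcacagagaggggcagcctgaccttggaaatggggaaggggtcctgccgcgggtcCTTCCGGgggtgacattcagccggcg
Atp5h (chr11:115419870-115420169): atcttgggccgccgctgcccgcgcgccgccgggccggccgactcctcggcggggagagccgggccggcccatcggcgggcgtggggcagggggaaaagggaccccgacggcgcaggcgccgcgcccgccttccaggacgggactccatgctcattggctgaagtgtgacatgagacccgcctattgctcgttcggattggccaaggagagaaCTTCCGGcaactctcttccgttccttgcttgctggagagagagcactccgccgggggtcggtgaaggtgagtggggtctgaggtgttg
Atp5g3 (chr2:73911277-73911576): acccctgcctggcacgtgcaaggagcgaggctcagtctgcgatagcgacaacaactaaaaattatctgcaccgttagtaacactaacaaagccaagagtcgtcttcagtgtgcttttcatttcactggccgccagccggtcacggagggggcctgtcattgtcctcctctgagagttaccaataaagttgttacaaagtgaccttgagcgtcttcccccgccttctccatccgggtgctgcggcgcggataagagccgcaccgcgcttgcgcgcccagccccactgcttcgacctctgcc
Atp5j2 (chr5:145191492-145191791): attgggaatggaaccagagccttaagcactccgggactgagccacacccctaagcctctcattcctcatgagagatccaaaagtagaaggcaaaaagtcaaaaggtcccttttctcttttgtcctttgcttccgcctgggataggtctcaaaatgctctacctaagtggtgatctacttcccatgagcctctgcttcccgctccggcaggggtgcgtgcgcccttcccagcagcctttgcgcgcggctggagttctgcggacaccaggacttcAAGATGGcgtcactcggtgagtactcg
Atp5l held ETS letters 212 bases before and 25 bases after its start, and NRF1 letters 240 bases before it. Atp5h held ETS letters 38 bases before its start, Atp5j2 held YY1 letters 24 bases after it, and none of the 4 motifs was found in Atp5g3. Over the 10 genes, with both listed starts of Atp5j counted, the ETS site was found in 4 (Atp5h, Atp5j, Atp5k and Atp5l) and in 8.91% of all 32544 listed promoters. The NRF1 core was found in 4 (Atp5g2, Atp5j, Atp5k and Atp5l) and in 3.6% of all promoters. The YY1 site was found in 3 (Atp5j, Atp5j2 and Atp5pb) and in 6.37% of all, and the SP1 site in 3 (Atp5g2, Atp5j and Atp5pb) and in 25.7% of all. No matches overlapped. A match of letters is a description of these windows and not a bound site.

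Library totals were 17276810 to 30449055 counts in MS and 18368519 to 26450808 in SR. One MS library, called A2, lay at -27.1 on the first principal component of the 500 most variable genes, where the other 20 lay between -11.9 and 12.2. Its markers of dentate gyrus granule cells summed to 118 CPM (CPM being the counts of a gene relative to its normalized library total), against at least 274 in every other library, and its markers of striatal medium spiny neurons to 1969 CPM, against at most 680. A2 was left out, as the study left out 1 outlier, so that n was 8 in MS and 12 in SR wherever the full 21 libraries are not named. Each of the 6 markers of granule cells and of the 6 markers of pyramidal neurons had counts in every library other than A2, which was not checked for this. The labels name no nest, so each mouse carries the letter of its run of 3 consecutive animal numbers, here called a set, and a number within it. Sets A, B and C are MS, and sets D, E, F and G are SR.

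Levels of different genes were compared as CPM per kilobase of 1 spliced coding transcript. In SR, Atp5h was the highest at 165.9 ± 9.83 CPM per kilobase (SD, n = 12), with Atp5g3 at 161.3 ± 9.16 and Atp5g1 at 131.5 ± 10.8. Next came Atp5pb at 86.2 ± 3.82, Atp5l at 76.8 ± 7.77, Atp5o at 76.5 ± 2.99 and Atp5j at 69.1 ± 3.75. Atp5g2 stood at 54.2 ± 2.98, Atp5j2 at 40.5 ± 2.86 and Atp5k at 18.0 ± 2.78. The highest was 9.23 times the lowest, although the subunits are parts of 1 complex. The SR ranges of neighbours overlapped for Atp5h and Atp5g3, for Atp5g3 and Atp5g1, and along the run from Atp5pb to Atp5j. They did not overlap between Atp5g1 and Atp5pb, between Atp5j and Atp5g2, between Atp5g2 and Atp5j2, or between Atp5j2 and Atp5k. Within single mice, Atp5g3 was above Atp5g1 in 20 of 20, while Atp5h was above Atp5g3 in 14 of 20. In MS the means were 192.1 ± 24.4 for Atp5h, 181.7 ± 18.6 for Atp5g3 and 147.9 ± 20.04 for Atp5g1 (SD, n = 8), and Atp5l, at 94.5 ± 11.2, stood above Atp5pb, at 89.7 ± 7.23. This order rests on the length used. Per kilobase of the union of all annotated exons, which counts retained introns, Atp5h (70.8 in SR) and Atp5g3 (52.8) remained at the top, but Atp5g1 (15.96) ranked below Atp5g2 (23.7), and Atp5l (6.48) below Atp5k (10.8).

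All 10 genes had a higher mean in MS than in SR, by 3.69% for Atp5g2 to 23.1% for Atp5l, and none passed the test after adjustment. The comparison used the quasi-likelihood test of edgeR on the counts of all 18146 genes tested, with Benjamini-Hochberg adjustment over all of them and a threshold of 0.05. It called 2 genes in all, which is 0.011% of those tested, and 0 of the 10. At an unadjusted p under 0.05, 6 of the 10 were higher in MS (Atp5g1, Atp5g3, Atp5h, Atp5j, Atp5j2 and Atp5l), against 6.62% of all genes. Because the 10 genes were chosen with earlier results of these data known, this contrast is a description and not independent evidence. Of all genes, 50.3% had a log2 fold change (MS against SR) above 0. The median log2 fold change was 0.17 over the 10 genes and 0.00 over all genes tested. DESeq2, run as an alternative, called Atp5l (adjusted p = 0.0146) and Atp5h (adjusted p = 0.0471), beside 0.966% of the genes it gave an adjusted p. Both genes are also in the list of changed genes that the study drew from these mice, which is not independent evidence. In 0 of the 10 genes did every MS mouse lie above every SR mouse, which held for 0.00551% of all genes. In a bulk sample, more of a transcript per cell and more of the cells that carry it cannot be told apart.

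**Figure D1:**
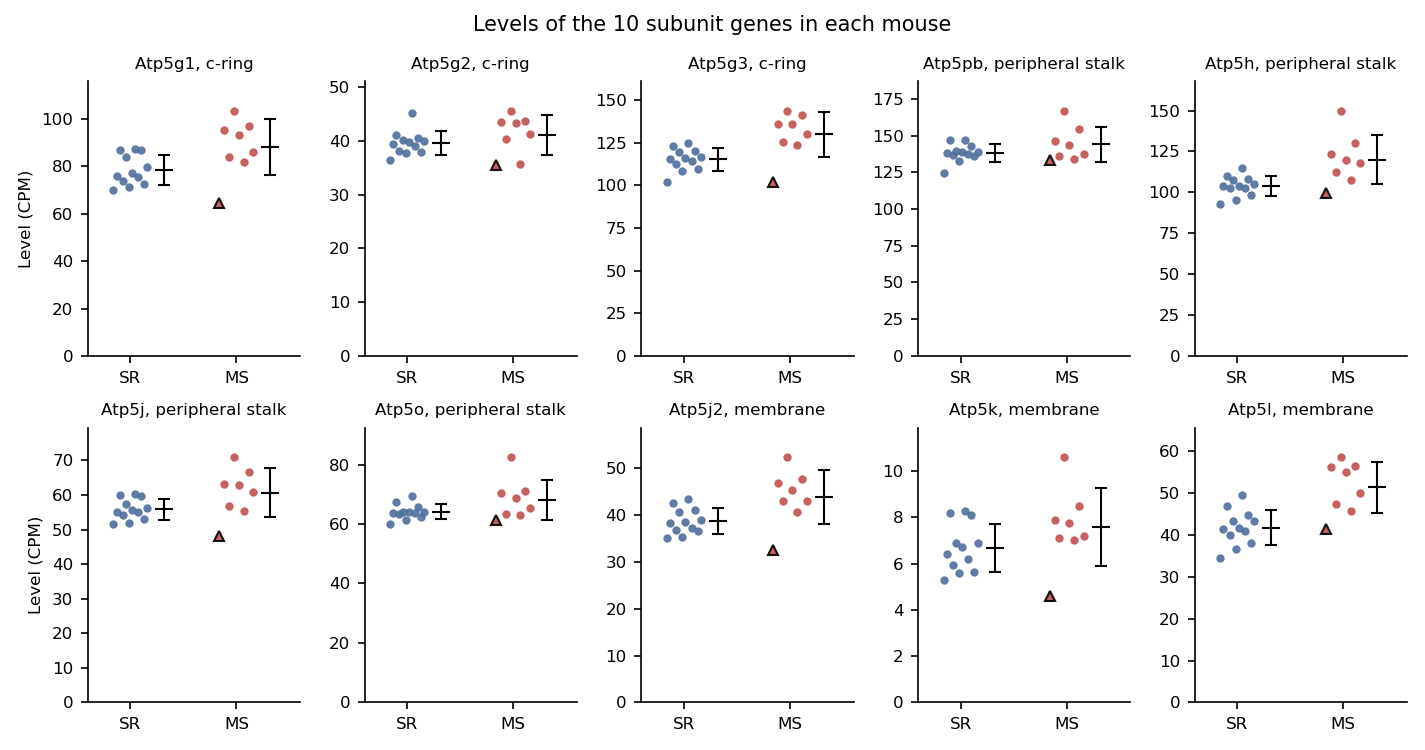
Level of each of the 10 genes in every mouse, in CPM on a linear axis from 0, for 12 SR mice (blue) and 8 MS mice (red). Bars give the mean ± SD, and the black-edged triangle is MS mouse C3, which was the lowest MS mouse for all 10 genes.

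The membrane subunits had the gene with the smallest p of the 10. Atp5l (chr9:44912557-44920742), which encodes subunit g of the dimer interface, had 34.5 to 49.6 CPM in SR with a median of 41.6, and 41.5 to 58.5 CPM in MS with a median of 52.6. Of the 8 MS mice, 5 were above the highest SR mouse and 7 above the SR median, and 5 of 12 SR mice were below the lowest MS mouse. The MS mean was 51.4 ± 6.12 CPM (SD, n = 8) and the SR mean 41.8 ± 4.23 CPM (SD, n = 12), for a log2 fold change of 0.30 ± 0.0663 (SE). Its edgeR adjusted p was 0.111, at an unadjusted p of 0.000142 that ranked 17 among all genes. Atp5j2 (chr5:145183698-145192062), for subunit f, had 35.2 to 43.4 CPM in SR (median 38.4) and 32.6 to 52.3 CPM in MS (median 44.1). The ranges overlapped, with 4 MS mice above the highest SR mouse and 1 mouse, C3, below the lowest. Its log2 fold change was 0.18 ± 0.0619 (SE), with an edgeR adjusted p of 0.254. Atp5k (chr5:108433244-108434448), for subunit e, the partner of subunit g, was the lowest of the 10 and the most variable. It had 5.30 to 8.25 CPM in SR (median 6.55) and 4.60 to 10.6 CPM in MS (median 7.47). The log2 fold change of 0.19 ± 0.115 (SE) had an interval (95%) from -0.05 to 0.42 and an edgeR adjusted p of 0.551. It was 0.10 without mouse A1 and 0.05 without set A.

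In the peripheral stalk the difference was largest for Atp5h (chr11:115415689-115419962), which encodes subunit d. It had 93.1 to 115.0 CPM in SR (median 103.8) and 99.6 to 149.8 CPM in MS (median 118.9). There were 5 MS mice above the highest SR mouse, and mouse C1 stood at the top with 149.8 CPM. The means were 120.1 ± 15.2 CPM (SD, n = 8) in MS and 103.7 ± 6.15 CPM (SD, n = 12) in SR. The log2 fold change was 0.21 ± 0.0554 (SE), with an unadjusted p of 0.000828 and an edgeR adjusted p of 0.150. Atp5j (chr16:84827866-84835625), for coupling factor F6, had 51.6 to 60.3 CPM in SR (median 55.4) and 48.1 to 70.9 CPM in MS (median 61.9). The MS mice lay on both sides of the SR range, 5 above it and C3 below it. Its log2 fold change was 0.12 ± 0.0533 (SE), with an edgeR adjusted p of 0.396. Atp5o (chr16:91925214-91931687), for OSCP at the tip of the stalk, had 59.9 to 69.4 CPM in SR (median 63.9) and 61.4 to 82.4 CPM in MS (median 67.0), with 3 MS mice above the SR range. Atp5pb (chr3:105942698-105960099, named Atp5f1 in GENCODE M21), for subunit b, the long rod of the stalk, had 124.4 to 147.1 CPM in SR (median 138.4) and 133.2 to 166.8 CPM in MS (median 140.2). The medians of Atp5pb lay close together, and 4 of 8 MS mice were above the SR median. The log2 fold changes were 0.09 ± 0.0438 (SE) for Atp5o and 0.06 ± 0.0402 (SE) for Atp5pb, with edgeR adjusted p of 0.435 and 0.599. Without mouse C1 they were 0.05 and 0.03, and with all 21 libraries that of Atp5pb was 0.02.

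Among the c-ring genes, Atp5g3 (chr2:73908447-73911326) had 101.7 to 125.0 CPM in SR (median 115.6) and 101.9 to 143.6 CPM in MS (median 133.1). Of the 8 MS mice, 6 were above every SR mouse, and C3 stood beside the lowest SR mouse. The means were 129.8 ± 13.3 CPM (SD, n = 8) in MS and 115.2 ± 6.54 CPM (SD, n = 12) in SR. The log2 fold change was 0.17 ± 0.0501 (SE), with an unadjusted p of 0.00217 and an edgeR adjusted p of 0.189. Atp5g1 (chr11:96068852-96075670) had 70.1 to 87.2 CPM in SR (median 76.4) and 64.6 to 103.4 CPM in MS (median 89.6). Its log2 fold change was of the same size, 0.17 ± 0.0661 (SE), over a wider spread, with an edgeR adjusted p of 0.325. Atp5g2 (chr15:102662864-102672352) had 36.4 to 45.1 CPM in SR (median 39.7) and 35.5 to 45.6 CPM in MS (median 42.2). Only 1 MS mouse was above the SR range, and the log2 fold change was 0.05 ± 0.0472 (SE), with an edgeR adjusted p of 0.716 and an interval (95%) from -0.05 to 0.15. It was 0.03 without C1 and 0.01 without set B.

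**Figure D2:**
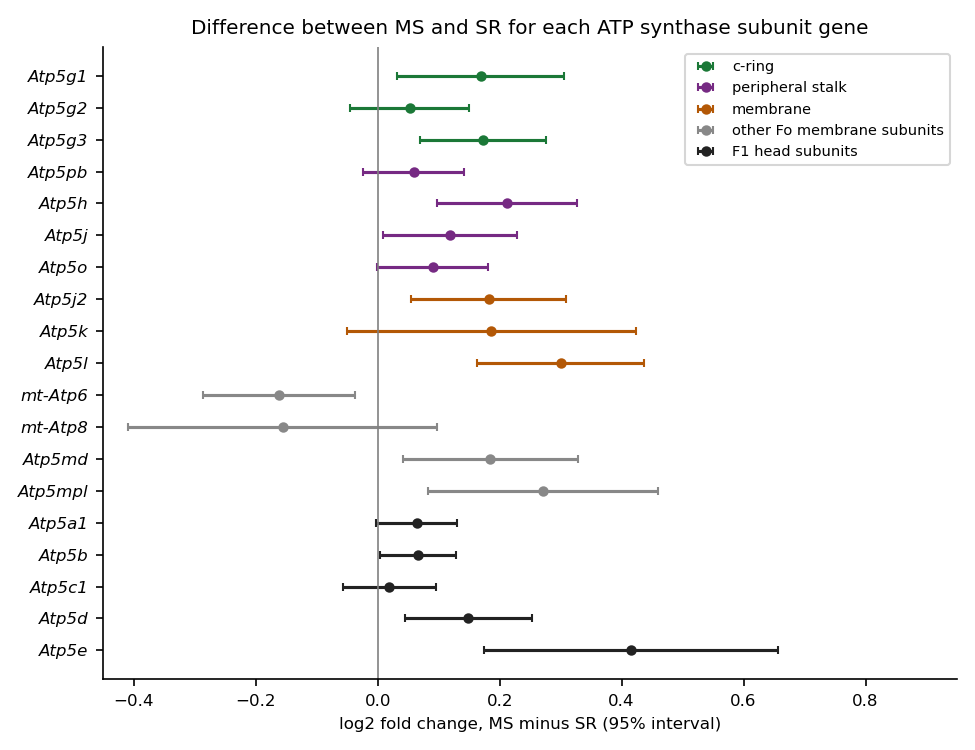
Log2 fold change (MS against SR, x axis) with its 95% interval for the 10 genes and for 9 other ATP synthase genes, coloured by their place in the complex. The 10 genes lie between 0.05 and 0.30, with Atp5l the highest of them, and mt-Atp6 and mt-Atp8 lie at -0.16.

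Since the c-ring genes give 1 mature protein, the mix of their transcripts was compared as each gene's share of their summed CPM per kilobase. Atp5g3 held the largest share in 20 of 20 mice with either length, and per kilobase of the coding transcript it was 46.5% ± 1.02 in SR (SD, n = 12) and 47.1% ± 1.48 in MS (SD, n = 8). Atp5g1 held 37.9% ± 1.23 in SR and 38.2% ± 1.73 in MS, and Atp5g2 held 15.6% ± 0.903 in SR and 14.6% ± 1.04 in MS. The share of Atp5g2 ran from 14.4% to 17.2% in SR and from 13.1% to 16.2% in MS, so the groups overlapped. The difference, MS minus SR, was -1.02 percentage points, with p = 0.0326 in a two-sided exact permutation test over mice and an adjusted p of 0.0979 over the 3 shares. Mouse C3 had the highest share of Atp5g2 in MS. Without C3 the difference was -1.25 points and the adjusted p, from the same exact permutation test, 0.0293. With any other single mouse left out, the adjusted p of this test stayed above 0.05, up to 0.234 without A1 (-0.806 points). The shares of Atp5g3 (+0.649 points, exact permutation adjusted p = 0.387) and Atp5g1 (+0.373 points, exact permutation adjusted p = 0.571) did not pass either. The difference for Atp5g3 was +0.386 points without A1, +0.395 without C1 and +1.02 without B1, and that for Atp5g1 lay between +0.098 (without B1) and +0.739 (without C1) as single mice were left out, with no adjusted p under 0.05 in the exact permutation tests. Per kilobase of the union of exons the shares in SR were 57.1% for Atp5g3, 25.6% for Atp5g2 and 17.3% for Atp5g1, with Atp5g2 above Atp5g1 in 20 of 20 mice. The difference for Atp5g3 was then +1.21 points and that for Atp5g2 -1.51 points (exact permutation p = 0.0473 and 0.0255, adjusted p = 0.0709 for both). In A2 the shares were 34.1% for Atp5g1, 18.0% for Atp5g2 and 47.9% for Atp5g3, and with all 21 libraries the difference for Atp5g1 was -0.0834 points and that for Atp5g2 -0.649 points.

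**Figure D3:**
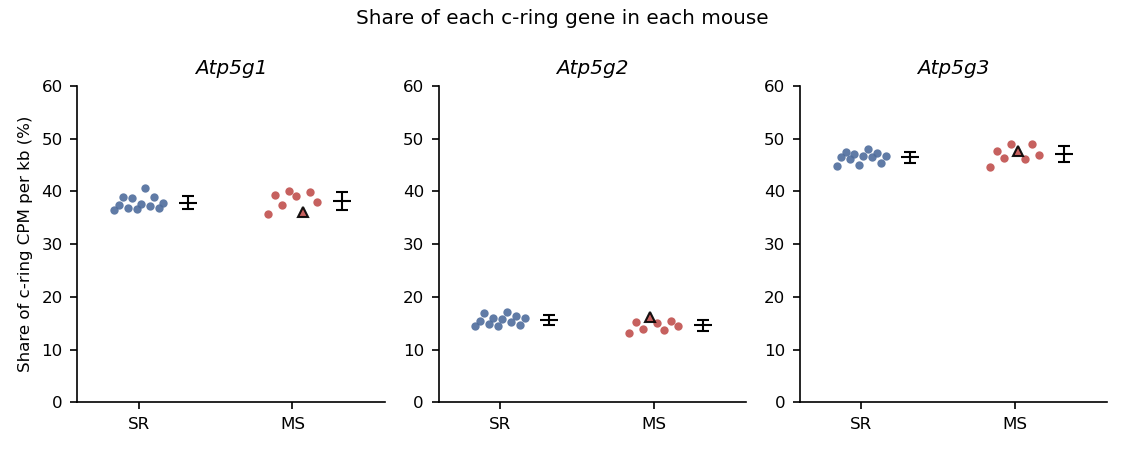
Share of Atp5g1, Atp5g2 and Atp5g3 in their summed CPM per kilobase (y axis, percent) in each of 12 SR mice (blue) and 8 MS mice (red), with mean ± SD beside the points and mouse C3 as a black-edged triangle. Per kilobase of the coding transcript, the length used here, Atp5g3 was above Atp5g1 and Atp5g1 above Atp5g2 in every mouse shown (the last pair turned with the union of exons), and the share of Atp5g2 averaged 15.6% in SR and 14.6% in MS.

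For 7 of the 10 genes the annotation holds pseudogenes at least 95% identical to the transcript over at least 150 bases. For Atp5g1, Atp5h, Atp5k, Atp5o and Atp5pb no such pseudogene had counts above 0.965% of the gene's own (Gm10250 for Atp5h), while for Atp5g2 and Atp5l the share was larger. Atp5g2 shares runs of 645 and 441 bases, each 100% identical, with the pseudogenes Gm10175 and Gm10231, whose counts came to 24.5% and 24.4% of its own. Atp5l shares 309 identical bases with Gm10221, whose counts came to 23.4% of its own and whose log2 fold change was 0.33 (edgeR adjusted p = 0.174). Reads from these stretches cannot be assigned to 1 source, so the levels of Atp5g2 and Atp5l are uncertain. Gm10175 and Gm10231 had nearly the same total counts, 4603 and 4573. Whether the same reads were counted at both was not tested, so sums with them may hold a read more than once. With the counts of near-identical pseudogenes added to each gene, the log2 fold change was 0.08 for Atp5g2 and 0.30 for Atp5l. The difference in the share of Atp5g2 was then -0.981 points, with p = 0.119 in the exact permutation test. Exons of Atp5j and of Gabpa on the opposite strand share 397 bases, and those of Atp5pb and Wdr77 share 337. The log2 fold changes of these neighbours were 0.14 and 0.04, and whether the counting used strand was not stated in the sources used here. For Atp5o the table holds a second entry of the same name, with 0 counts, which shares 243 exonic bases with it on the same strand. Antisense genes Gm15976 and D430001F17Rik share 356 and 346 exonic bases with Atp5o, at 32 and 47 counts in total. How reads over these bases were counted was not tested, so the level of Atp5o is uncertain as well.

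For these 10 genes the MS mice spread more widely than the SR mice. The coefficient of variation was larger in MS than in SR for all 10 genes, from 8.06% (Atp5pb) to 22.0% (Atp5k) in MS and from 3.91% (Atp5o) to 15.5% (Atp5k) in SR. This was not tested. The share of all genes with a larger coefficient in MS was not computed, so the wider spread is not shown to be particular to these 10. Mouse C3 was the lowest MS mouse for 10 of 10 genes, lay below the SR median for all of them and below the lowest SR mouse for 5. Mice A3, B3 and C1 lay above the SR median for 10 of 10 genes and above the highest SR mouse for 8 each. Among SR mice, F1 was above the median for 0 genes and F2 for 10.

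The genes deviated together from mouse to mouse. Taken as deviations from the group means over 20 mice, log2 CPM of each gene had a Pearson r of 0.53 (Atp5k) to 0.88 (Atp5g3) with the mean of the other 9. Single pairs ranged from 0.073 for Atp5pb and Atp5k to 0.847 for Atp5g1 and Atp5g3. These values are descriptions, since all genes of a mouse share its library. The 5 genes outside the 10 that were most like their mean were Ndufa13 (r = 0.92 over 20 mice), a subunit of complex I, Ppia (0.918), which encodes the prolyl isomerase cyclophilin A, Gm10123 (0.898), Elob (0.891), a part of elongin and of ubiquitin ligases, and Chchd2 (0.89), a protein of the mitochondrial intermembrane space. Their log2 fold changes lay between 0.06 for Gm10123 and 0.25 for Ndufa13, with none called by edgeR.

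The 10 genes also deviated together with a general trend of the libraries. The length trend of a library is the slope of its log2 CPM, relative to the mean library, on the log2 union exonic length of all genes tested. On that length the 10 genes ran from 616 bases (Atp5k) to 6443 bases (Atp5l), and 7 of them lay below the median of 3899 bases over all genes tested. It ran from -0.0535 to 0.0417 in MS and from -0.0190 to 0.0154 in SR. C1, with the lowest slope, had a mean deviation over the 10 genes of 0.217 on the log2 scale, and C3, with the highest slope, one of -0.233. Within groups, r with the slope was negative for all 10 genes, from -0.437 (Atp5k) to -0.860 (Atp5h). The slope is drawn from all genes tested, these 10 included, and the share of all genes with a negative r was not computed. Over all genes, in either direction, 2041 of 18146 had an unadjusted p under 0.05 in the edgeR fit with the slope as a term. In that fit the median log2 fold change of the 10 genes was 0.12, with 10 of 10 above 0, 4 at an unadjusted p under 0.05 and 0 called. The log2 fold change was then 0.25 for Atp5l and 0.15 for Atp5h, with edgeR adjusted p of 0.133 and 0.130.

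**Figure D4:**
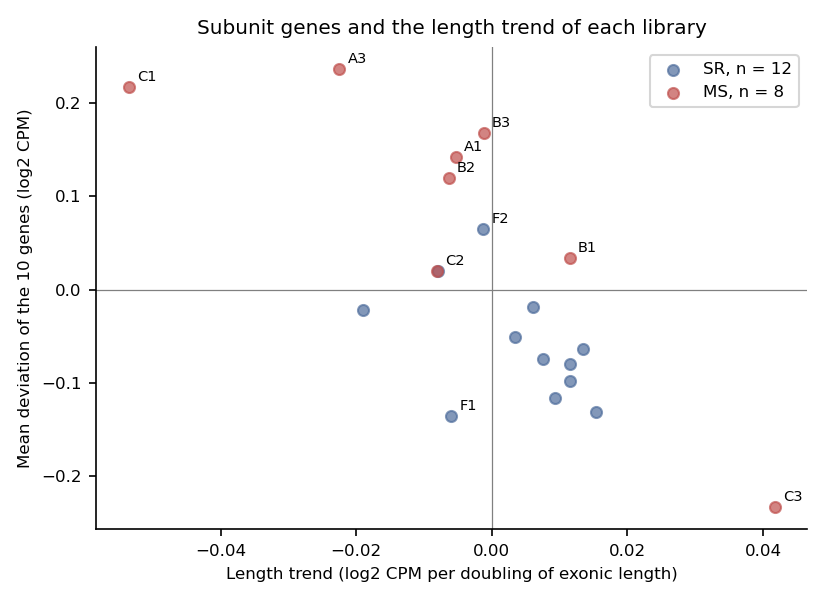
Mean deviation of the 10 genes from their average over mice (y axis, log2 CPM) against the length trend of each library (x axis, change of log2 CPM per doubling of exonic length), for 12 SR mice (blue) and 8 MS mice (red). C1 and A3 lie at the upper left and C3 at the lower right, and the MS mice spread over -0.0535 to 0.0417 on the x axis.

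Markers of the choroid plexus, a tissue next to the hippocampus, had a higher median in MS, over ranges that overlapped, and 0 of 7 passed the edgeR test or had an unadjusted p under 0.05. All 7 had counts in every library other than A2, which was not checked for this. Without A2, the sum of these markers ran from 52.9 to 4186 CPM in MS (median 3305) and from 29.0 to 4512 CPM in SR (median 833). With the mean of these markers as a term the median log2 fold change of the 10 genes was 0.12, with 10 of 10 above 0 and 4 at an unadjusted p under 0.05. In that edgeR fit 1483 of all 18146 genes were under this p, in either direction. Beyond these fits, the part of either measure in the differences was not tested. Marker sums of striatal medium spiny neurons overlapped too, at 81.9 to 680 CPM in MS (median 120.1) and 88.0 to 425 CPM in SR (median 107.3). All 7 striatal markers had a log2 fold change above 0, as did 50.3% of all genes. Their median was 0.48, with 0 of 7 at an unadjusted p under 0.05 in edgeR. No fit held the striatal markers as a term, so their part in the differences was not tested. With A2 kept in, the median of the 10 genes was 0.14, with 10 of 10 above 0, 5 at an unadjusted p under 0.05 and 0 called. Of all 18077 genes tested by edgeR with A2, 2114 were under this p, in either direction.

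The animal numbers fall into a first range (sets A, B, D, E and F) and a second (sets C and G), and the comparison was repeated within each. In the first range, 5 MS against 9 SR mice, the median log2 fold change of the 10 genes was 0.21. Atp5l at 0.38 ± 0.0759 (SE), Atp5g3 at 0.23 ± 0.0458 and Atp5g1 at 0.27 ± 0.0595 passed the test (edgeR adjusted p of 0.0283, 0.0239 and 0.0384), beside 1.25% of all genes. In the second range, 3 MS against 3 SR mice, edgeR called 0 of the 10 and 0% of all genes. At an unadjusted p under 0.05 were 0 of the 10, and 810 of all 17940 genes tested, in either direction. The median of the 10 was 0.09, and 9 of 10 genes were higher in MS. Atp5g1 was the exception, at -0.02 ± 0.111 (SE), while Atp5h stood at 0.25 ± 0.134 (SE), above its value in the first range. The interaction of condition with range called 0 of the 10 and 0% of all genes, and its smallest p among the 10 was 0.0230 for Atp5g1 (edgeR adjusted p = 0.526). This was the 1 gene of the 10 with an unadjusted p under 0.05. The share of all genes under that p in the interaction test was not computed, so Atp5g1 is not shown to stand out.

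**Figure D5:**
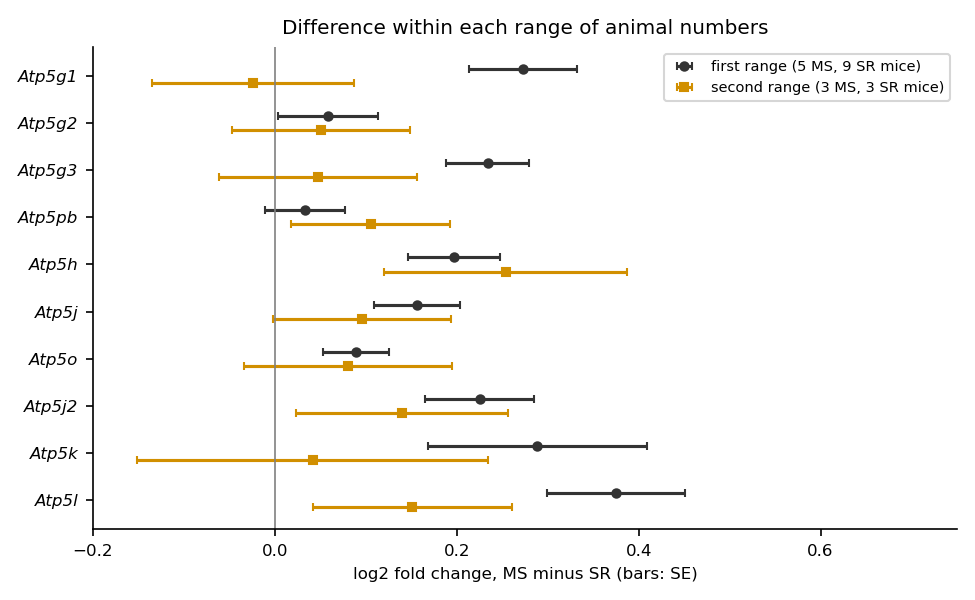
Log2 fold change (MS against SR, x axis) with its SE for each of the 10 genes in the first range of animal numbers (black circles, 5 MS and 9 SR mice) and in the second (orange squares, 3 MS and 3 SR mice). In the second range the bars are wider, and Atp5g1 lies at -0.02 against 0.27 in the first range.

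The calls among the 10 changed when C2, C3 or set C was left out, and with DESeq2 on the same mice. With any other single mouse or set left out, edgeR called 0 of the 10. Without C3 edgeR called 4 of the 10, Atp5g3 (log2 fold change 0.21), Atp5h (0.24), Atp5j2 (0.23) and Atp5l (0.34), with adjusted p from 0.0158 to 0.0318, beside 0.596% of all genes. Without C2 it called Atp5l alone (adjusted p = 0.0429), beside 0.597%. Without set C it called 6, Atp5g1 and Atp5j in addition, beside 1.83%. Sets within a condition differed for 0 of the 10 genes and for 0.0331% of all genes, and 1 of the 10 had an unadjusted p under 0.05, Atp5j2 (p = 0.0426, edgeR adjusted p = 0.533). The share of all genes under that unadjusted p in the test of sets was not computed, so Atp5j2 is not shown to stand out. The set means of Atp5j2 were 49.9, 43.4 and 40.3 CPM in A, B and C, and 36.7 to 42.2 CPM in the SR sets. Set A, of 2 mice, had the highest mean of the 7 sets for Atp5l as well, at 57.5 CPM, against 50.8 in B, 47.8 in C and 37.8 to 43.7 in the SR sets. The means of all MS sets lay above those of all SR sets for 4 of the 10 genes, Atp5l, Atp5h, Atp5g3 and Atp5o, and for 5.63% of all genes.

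Of the rest of the complex, the mitochondrially encoded Fo subunits had lower means in MS. mt-Atp6, subunit a at the proton path, had 5639 ± 198 CPM in SR (SD, n = 12) and 5041 ± 721 CPM in MS (SD, n = 8). Its log2 fold change was -0.16 (unadjusted p = 0.0135, edgeR adjusted p = 0.300), and that of mt-Atp8 -0.16 (edgeR adjusted p = 0.663). The small nuclear-encoded Fo subunits were on the side of the 10 genes, with log2 fold changes of 0.18 for Atp5md and 0.27 for Atp5mpl (edgeR adjusted p of 0.300 and 0.250). Of the 5 F1 head genes, 5 were higher in MS, 3 at an unadjusted p under 0.05 and 0 called, with a median log2 fold change of 0.07. Of all genes tested, 50.3% were higher in MS, and 6.62% were higher at an unadjusted p under 0.05. Atp5e, for the epsilon subunit of the central stalk, had 0.42 ± 0.116 (SE), and Atp5d, for delta, 0.15 ± 0.0503 (SE). The genes for the large catalytic and structural subunits, Atp5b and Atp5a1, had 0.07 ± 0.0300 (SE) and 0.06 ± 0.0323 (SE), and Atp5c1, for gamma, 0.02 ± 0.0370 (SE). The edgeR adjusted p of these 5 lay between 0.181 and 0.894. Of the inhibitor Atpif1 and the coupling factor B gene Atp5s, 1 of 2 was higher, and neither was under an unadjusted p of 0.05.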

How the data were processed

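Hippocampal poly-A RNA of 9 MS and 12 SR mice was sequenced, with groups taken from the treatment given in the labels. The authors used STAR 2.7.3a, the GRCm38 build and featureCounts to obtain reads per Ensembl gene, and they deposited 1 table of raw counts, neither normalized nor filtered. The kit is directional, and the strand setting of the counting is not given in the sources used here. Columns that belong to no sample numbered 0. No libraries of a group were the same: chi-square per degree of freedom was 3.55 for the closest pair, where sampling noise alone gives about 1.

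Genes kept by filterByExpr (minimum count 10), 18146 in all, were scaled by TMM and tested with edgeR 4.0.16 (quasi-likelihood, robust) in R 4.3.3. The biological coefficient of variation was 13.3%. Log2 CPM used a prior count of 2. SE was derived from the log2 fold change and its F statistic. DESeq2 1.42.0 and limma 3.58.1 were alternatives. Exact permutation tests (SciPy 1.17.1) ran over all 125970 splits of the mice, and BLAST+ 2.17.0 found transcripts at least 95% identical over at least 150 bases. Positions and transcripts are of GENCODE M21, with an entry for 55141 of the genes listed. Length is that of 1 coding transcript with both untranslated ends, a definition settled after the gene models were seen, and the union of all exons for the length trend. All 10 genes are named by rule, as are the listed subunits and the 5 most alike genes. The members, lists and motifs were chosen with earlier results of these data known. The computation was tested on simulated data. Alternatives were other libraries, filters, scalings, tests and terms, each library and set left out, and pseudogenes added. Those added after seeing the data were near-identical pseudogenes, the union length of shares and the ranges alone. Amino acid sequences were not used here beyond comparing translated coding stretches. Counting error is largest for Atp5k.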

Additional observations from a re-analysis of the deposited data

Results flagged for a closer look

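In the 8 MS mice, the gap of the farthest mouse to its neighbour was looked at against the range of the group for the 10 genes and the 3 c-ring shares. Of these 13, 2 passed Dixon's 95% limit, where chance flags about 1 in 20 and the genes deviate together. The ratio was 0.527 for Atp5g3, at the very edge of the limit of 0.526, and 0.545 for Atp5o. Mouse C3 had 101.9 CPM of Atp5g3, where the other 7 MS mice had 123.9 to 143.6 CPM. Mouse C1 had 82.4 CPM of Atp5o, the highest value of that gene in any mouse compared. The groups of 12 SR mice were not examined by this limit. Without C3 the log2 fold change of Atp5g3 was 0.21 in place of 0.17, and without C1 that of Atp5o was 0.05 in place of 0.09. C3 and C1 are also the libraries with the highest and the lowest length trend, and the part of that trend in these values was not tested.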

How the results depend on the processing

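All 10 genes stayed higher in MS under every alternative but 1: in the second range of animal numbers alone, Atp5g1 had a log2 fold change of -0.0241 (adjusted p = 0.984). The number of the 10 called was 0 except for 2 with DESeq2, 3 in the first range alone, 6 without set C, and 0 to 4 with single mice left out (1 without C2, 4 without C3). The number at an unadjusted p under 0.05 was 6, with 0 in the second range alone and 8 in the first, 3 without set A, 4 without set B and 8 without set C, 7 with counts summed within sets, 5 with limma and the set as a block or with all 21 libraries, 4 with the length trend or the choroid plexus term, and 4 to 8 with single mice left out. Over all genes, in either direction, 2095 of 18146 had an unadjusted p under 0.05 in the main comparison. That number was 3059 of 18395 in the first range and 810 of 17940 in the second. It was 1561 of 18425 without set A, 1769 of 18640 without set B and 3361 of 18561 without set C. Counts summed within sets gave 1753 of 21752, and limma gave 1776 of 18146. Single mice left out gave 1661 of 18266 (without A3) to 2866 of 18266 (without C2). After adjustment, 2 of all genes were called. That count was 1 with all 21 libraries, with no filter on low counts or without set G, 134 with DESeq2, 230 in the first range, 340 without set C, and 0 with counts summed within sets, with the choroid plexus term, in the second range, or without set A, B, D or F. It ran from 0 to 109 with single mice left out (109 without C2 and 109 without C3). The difference in the c-ring share of Atp5g1 was -0.0834 points with all 21 libraries, and without single mice it ran from 0.098 to 0.739. That of Atp5g3 ran from 0.386 to 1.02 points, and was 1.21 with the union of exons as the length. That of Atp5g2 ran from -1.25 (without C3) to -0.806 points (without A1), with exact permutation adjusted p of 0.0293 and 0.234. By set means over the 7 sets the exact permutation p for Atp5g2 was 0.114, where the smallest possible is 0.0571. The causes were not tested. No pseudogene is named for a c-ring gene, so that alternative left the shares as they were. No paired analysis was possible because the replicate numbers only give the order of the samples and pair no MS mouse with an SR mouse. With 8 and 12 mice, the SE of 0.0402 to 0.115 on the log2 scale limits what can be told apart.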

Other observations

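Genes around the synthase were read from the same fit, and none was called by edgeR. The counts below stand beside 50.3% of all genes higher in MS, and 6.62% higher at an unadjusted p under 0.05. Of 5 assembly factors, 4 were higher in MS, 2 at an unadjusted p under 0.05: Tmem242, an assembly factor of the c-ring, at a log2 fold change of 0.18 (adjusted p = 0.174, 8 of 8 MS mice above the SR median) and Fmc1 at 0.32 (adjusted p = 0.289). Tmem70, which also acts in c-ring assembly, had 0.03. Of the carriers that bring phosphate and ADP to the enzyme, 3 of 4 were tested and 3 were higher, Slc25a3 at 0.10, Slc25a4 at 0.07 and Slc25a5 at 0.12 (adjusted p from 0.228 to 0.538). Of 8 genes for the cristae, 5 were higher, 2 at an unadjusted p under 0.05: Minos1 at 0.16 and Chchd6 at 0.11. Immt and Opa1, for the large scaffold protein of the cristae junctions and for the inner membrane fusion protein, had -0.04 and -0.06.

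The MS library left out, A2, had 66.9 CPM of Atp5g1, 43.2 of Atp5g2, 112.5 of Atp5g3, 111.3 of Atp5pb, 108.2 of Atp5h, 59.9 of Atp5j, 58.5 of Atp5o, 40.2 of Atp5j2, 7.75 of Atp5k and 45.3 of Atp5l. Its values of Atp5pb and Atp5o were below every other library, and that of Atp5g1 was below every SR mouse. The A2 values of the remaining genes lay within the SR range, and none lay above it.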
